A study of Homo sapiens with 6 samples.

Results

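The 55 genes described here encode the proteins that mark replication origins, load and start the replicative helicase, copy the DNA, hold the fork together and repackage the new strands into chromatin. They were taken by gene symbol from a list set by function, in a rule that uses no measured value, and were sorted into 11 steps of replication. All 55 were among the 35322 gene symbols of the count table, and all 55 were among the 16510 genes that passed the filter on low counts. RNA had been sequenced from 22Rv1, a human prostate carcinoma cell line kept in RPMI1640 medium with fetal bovine serum and penicillin-streptomycin and given no treatment. There were 3 groups of 2 libraries each. The control cells are labelled as wild type, and the other groups are separate knockdowns of ZMYND11, a chromatin reader protein, labelled ZM11-kd1 and ZM11-kd2 and called kd1 and kd2 here. The study describes its sequenced 22Rv1 cells as stable lines that carried short hairpin RNAs (shRNAs) against ZMYND11 or control shRNAs, delivered by lentivirus and kept under puromycin, while the labels name neither the hairpin behind each knockdown nor a control construct. The labels do not say whether the libraries of a group came from separate cultures, so p-values measure only the spread between these libraries, which may be technical.

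Replication is prepared in G1, when the origin recognition complex, CDC6 and CDT1 place inactive MCM2 to MCM7 rings on DNA, a step called licensing. At the start of S phase CDC7 with DBF4 and CDK2 with cyclin E turn these rings into working helicases by recruiting CDC45 and GINS. Polymerases, the PCNA clamp and its loaders, RPA and the fork protection proteins then follow the helicase. Many of these genes are transcribed at the passage from G1 into S under E2F factors, and their RNA is therefore widely used as a mark of dividing cells.

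Library totals ranged from 26844128 to 38193748 counts, and genes were compared with edgeR's quasi-likelihood test, called at an adjusted p under 0.05. ZMYND11 itself (chr10:130088-254637 on hg38, in GENCODE 44) gave 4283 and 4179 counts in control, 941 and 773 in kd1 and 770 and 779 in kd2. Its RNA was thus 5.11-fold and 6.22-fold lower, as both knockdown labels say. The 7 prostate epithelial markers reported here were above 1 normalized CPM (counts per 1000000 of the TMM-scaled library total) in every library, although KLK3 and KLK2 were called lower in both knockdowns, with KLK3 at -3.24 in kd1 and -2.36 in kd2 on the log2 scale. FOLH1, KRT8, KRT18 and EPCAM were called higher in both. The summed level of these 7 markers lay between 1970 and 2015 CPM in control, 3240 and 3278 in kd1, and 3699 and 3737 in kd2. Of the other cell types looked for, the 6 fibroblast markers summed to 33.2 to 35.9, 86.6 to 87.3 and 44.3 to 44.7 CPM in the same order. Most of that sum was COL1A1, at a mean of 23.9 CPM in control, 74.5 in kd1 and 31.3 in kd2, and of the other 5 only LUM was above 1 CPM in every library. COL3A1 was called lower in both knockdowns (-2.53 in kd1, -3.04 in kd2, on the log2 scale) and DCN in kd2 (-1.91), while COL1A1 and COL1A2 were called higher in both and LUM in kd2. The 6 immune markers summed to at most 3.67 and the 4 endothelial markers to at most 0.196 CPM in any library, with CD3E and KDR at 0 in all. The part of these markers in the results below was not tested.

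Most of the replication genes fell in both knockdowns. In kd1, 49 of 55 were called lower, 5 higher and 1 (RPA2) was not called, where 39.8% of all tested genes were called lower and 38.2% higher. In kd2, 46 were called lower, 5 higher and 4 (ORC2, DBF4, RFC1 and RPA3) were not called, against 36.9% lower and 36.5% higher over all genes. The median log2 fold change of the 55 genes was -2.15 in kd1 and -1.65 in kd2, while that of all tested genes was -0.029 and -0.028. Both comparisons use the same control libraries. In bulk RNA, fewer cells in S phase and less RNA per cell cannot be told apart. By contrast, the study reports that its shRNA knockdowns raised proliferation, colony formation and xenograft growth in this cell line. Whether the sequenced knockdown cells divided more or less than control was not tested here, and the lower RNA is not a measure of growth.

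Added together, the 55 genes made up 0.469% of all counts in each control library. Their share was 0.1308% and 0.1302% in the libraries of kd1 and 0.171% and 0.170% in those of kd2. As normalized CPM their sum was 4136 and 4174 in control, 1471 and 1487 in kd1, and 1725 and 1675 in kd2, so the 3 groups did not overlap. Called lower in both knockdowns were 44 of the 55 genes, against 27.0% of all genes, and 45 had all 4 knockdown libraries below both controls, against 33.0%. The fall was at least 4-fold in both knockdowns for 18 genes, against 5.50% of all genes. With library totals alone as the scaling, 64.7% of all calls in kd1 and 59.2% in kd2 were toward lower, where TMM scaling gave 51% and 50.2%.

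**Figure D1:**
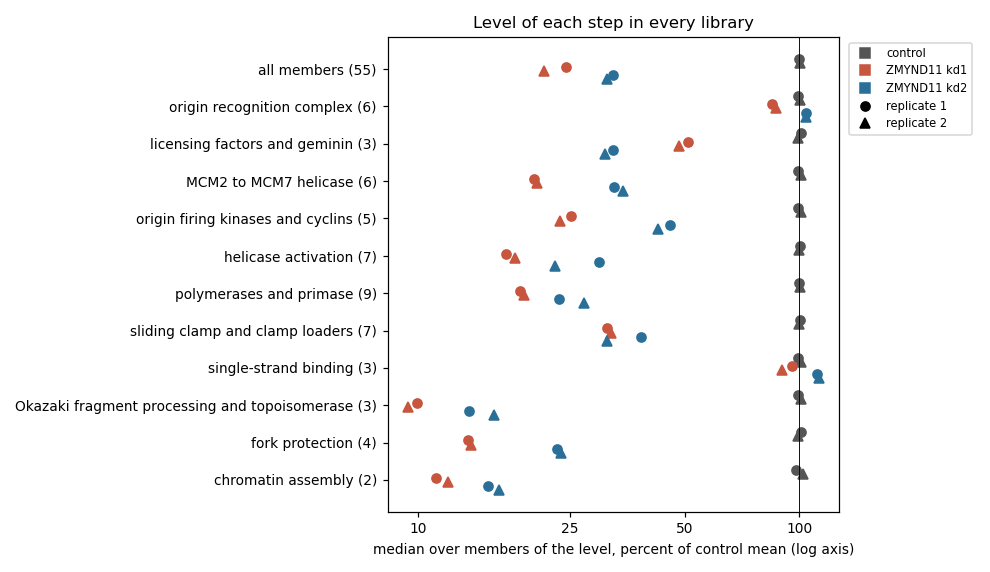
Median level of the genes of each replication step in every library, as a percent of the control mean on a log axis, with the number of genes in brackets and libraries as circles and triangles. The origin recognition complex and the single-strand binding genes lie between 84.7% and 112% in the knockdown libraries, while every other step lies below control in all of them.

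The steps differed in size. The lowest medians were those of Okazaki fragment processing and topoisomerase (-3.37 in kd1, -2.77 in kd2), chromatin assembly (-3.18 and -2.77) and fork protection (-3.004 and -2.26). Helicase activation (-2.52 and -1.92), polymerases and primase (-2.45 and -1.98) and the MCM2 to MCM7 helicase (-2.30 and -1.58) came next. Origin firing kinases and cyclins (-2.06 and -1.18) and the sliding clamp with its loaders (-1.62 and -1.52) were nearer to control. The median of licensing factors and geminin was -1.01 in kd1 and -1.66 in kd2, lower in kd2 than in kd1. This median is the value of CDT1, and with a correction for GC and length CDT1 was at -1.90 in kd1 and -1.78 in kd2, which turns that order. The 2 steps with medians close to 0 were the origin recognition complex (-0.22 and 0.052) and single-strand binding (-0.11 and 0.18). A step holds 2 to 9 genes, and differences between steps were not tested.

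**Figure D2:**
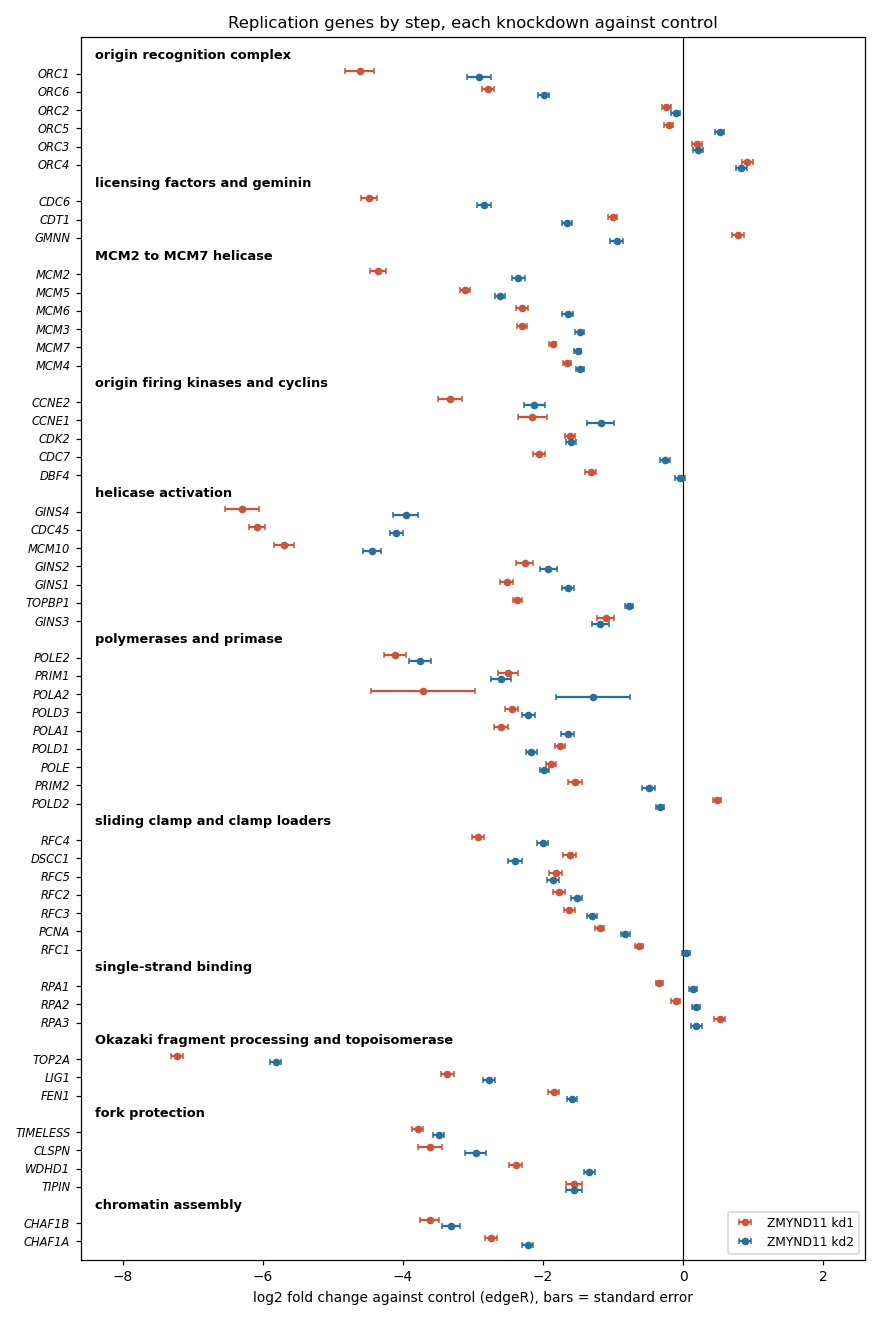
Log2 fold change of each of the 55 genes against control in edgeR, with bars of 1 standard error, grouped by step and ordered within a step by the mean of both knockdowns. TOP2A, GINS4, CDC45 and MCM10 lie farthest to the left, and ORC4 and GMNN in kd1 farthest to the right.

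The sequence just before the start site was read for genes at both ends of the range of fold changes, to show which letters they hold there. Promoters came from RefSeq (GRCh38.p14), in which 46 of the 55 genes matched by symbol. MCM4, MCM5, CCNE2, CDK2, GINS4, POLD3, DSCC1, RPA2 and RPA3 had no entry. The letters TTTCCCGC, TTTGGCGC, TTTCGCGC and TTTGCCGC, forms of the E2F site whose matches may overlap each other, and CCAAT, the letters bound by NF-Y, were searched on both strands. The bases shown run 5′ to 3′ on the gene's own strand and end 1 base before the start, with E2F letters or CCAAT, in either orientation, in capitals. Of the genes with an entry, first come the 4 with the lowest mean of both log2 fold changes, then the 2 with the highest, and last CDT1, chosen after its values were seen because it holds an E2F match.
TOP2A, chr17:40417897-40418146, minus strand: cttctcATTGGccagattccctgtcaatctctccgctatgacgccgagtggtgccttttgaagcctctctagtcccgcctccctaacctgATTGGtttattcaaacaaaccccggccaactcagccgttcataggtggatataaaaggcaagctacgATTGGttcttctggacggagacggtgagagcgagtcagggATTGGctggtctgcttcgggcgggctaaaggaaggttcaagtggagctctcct
CDC45, chr22:19479216-19479465, plus strand: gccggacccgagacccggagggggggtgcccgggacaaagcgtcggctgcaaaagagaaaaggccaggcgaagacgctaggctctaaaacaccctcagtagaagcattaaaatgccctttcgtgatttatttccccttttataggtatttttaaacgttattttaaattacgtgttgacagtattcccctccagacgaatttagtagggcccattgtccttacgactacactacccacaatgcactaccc
MCM10, chr10:13161308-13161557, plus strand: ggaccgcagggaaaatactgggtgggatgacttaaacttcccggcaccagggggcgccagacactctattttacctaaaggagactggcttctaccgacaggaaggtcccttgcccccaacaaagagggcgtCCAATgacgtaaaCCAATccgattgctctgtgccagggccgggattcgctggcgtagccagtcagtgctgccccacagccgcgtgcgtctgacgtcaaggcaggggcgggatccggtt
POLE2, chr14:49688215-49688464, minus strand: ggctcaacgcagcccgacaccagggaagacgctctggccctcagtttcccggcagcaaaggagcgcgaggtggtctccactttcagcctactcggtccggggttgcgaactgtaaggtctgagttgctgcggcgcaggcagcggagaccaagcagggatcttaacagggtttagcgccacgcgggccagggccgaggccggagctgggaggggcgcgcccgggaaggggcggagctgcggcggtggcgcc
ORC4, chr2:148021552-148021801, minus strand: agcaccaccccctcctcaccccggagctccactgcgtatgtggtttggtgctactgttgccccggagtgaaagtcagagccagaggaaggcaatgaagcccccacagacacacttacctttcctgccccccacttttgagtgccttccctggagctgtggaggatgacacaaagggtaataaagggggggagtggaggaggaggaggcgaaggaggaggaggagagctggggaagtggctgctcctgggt
ORC3, chr6:87589885-87590134, plus strand: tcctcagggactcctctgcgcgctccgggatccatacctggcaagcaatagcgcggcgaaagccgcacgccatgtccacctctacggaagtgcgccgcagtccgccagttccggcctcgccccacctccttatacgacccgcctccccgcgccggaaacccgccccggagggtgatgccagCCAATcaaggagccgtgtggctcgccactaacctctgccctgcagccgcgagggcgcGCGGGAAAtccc
CDT1, chr16:88803539-88803788, plus strand: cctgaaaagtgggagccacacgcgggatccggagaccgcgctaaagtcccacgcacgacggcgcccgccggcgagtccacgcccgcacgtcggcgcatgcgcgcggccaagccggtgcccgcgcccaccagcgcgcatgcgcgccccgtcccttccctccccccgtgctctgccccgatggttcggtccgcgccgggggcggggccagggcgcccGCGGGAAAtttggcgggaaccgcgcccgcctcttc
TOP2A held CCAAT 4 times and MCM10 held it 2 times, while the stretches of CDC45, POLE2 and ORC4 shown held none of the letters. CDC45 held CCAAT at another of its listed starts, and POLE2 held an E2F match once the first 50 transcribed bases were added. In ORC3, which did not fall, an E2F match ended 5 bases before the RefSeq start, and in CDT1, which fell, one ended 28 bases before it. RefSeq lists 3 starts for CDC45 and 2 for ORC4, of which the one nearest to the GENCODE start is shown. The RefSeq starts used for CDC45, POLE2, ORC4 and ORC3 lie 9, 208, 53 and 68 bases inside the gene as placed in GENCODE. The ORC3 match and most of the POLE2 stretch are thus inside those genes.

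Counting a gene when any of its listed starts held the letters within these 250 bases, 15 of the 46 genes (32.6%) held an E2F match, against 928 of 27305 genes in the whole table (3.4%). CCAAT was found in 26 of the 46 (56.5%), against 37% of all genes. Here all genes are those of that whole table, which includes genes not among those tested in these cells. Of the 14 genes with an entry that fell at least 4-fold in both knockdowns, 1 held the E2F letters (7.14%) and 9 held CCAAT (64.3%). Of the other 32, 14 held the E2F letters (43.8%) and 17 held CCAAT (53.1%). With the first 50 transcribed bases added, 22 of the 46 genes held an E2F match (47.8%), against 3.99% of all genes. In this wider window 5 of the 14 genes with the larger falls held one (35.7%) and 17 of the other 32 (53.1%). These are matches of letters and were not tested, and a stretch without them says only that these letters are not in that window.

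Within the origin recognition complex, the set of ORC1 to ORC6 that marks origins, the subunits parted. ORC1, an ATPase subunit that is known to come and go with the cell cycle, stood at 17.4 and 18.4 CPM in the control libraries, 0.500 and 0.980 in kd1 and 2.21 and 2.54 in kd2. The groups did not overlap, and its log2 fold change was -4.62 ± 0.21 (SE) and -2.92 ± 0.17. ORC6, the smallest subunit, followed the same order with 64.7 and 67.4 CPM in control, 9.98 and 9.12 in kd1 and 17.6 and 15.6 in kd2. It fell to 14.5% and 25.1% of the control mean.

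With TMM scaling, the remaining subunits changed by less than 2-fold. ORC2 had 54.98 and 51.9 CPM in control, 44.04 and 46.4 in kd1 and 50.5 and 48.7 in kd2, and was called lower in kd1 only, at -0.24 ± 0.067. With a correction for GC and length its value there turned to 0.087, and the call was lost without control replicate 1 (-0.203) or kd1 replicate 1 (-0.198). ORC3 had 26.6 and 26.2 CPM in control, 30.9 and 29.6 in kd1 and 30.1 and 31.1 in kd2. It was called higher in both, at 0.20 ± 0.075 and 0.21 ± 0.075, but the call in kd1 was lost without any one of the control or kd1 libraries (0.168 to 0.225) and that in kd2 without either control library (0.202 and 0.22), and with library totals alone the value in kd1 was -0.16. ORC4 was the gene of the 55 with the largest rise, from 25.96 and 24.6 CPM in control to 48.3 and 47.1 in kd1 and 42.2 and 47.9 in kd2. Every knockdown library lay above both controls, and the log2 fold changes were 0.92 ± 0.079 and 0.83 ± 0.079. In kd1 the value was 1.51 with the GC and length correction and 0.56 with library totals alone. ORC5 was called in opposite directions, with 44.1 and 45.9 CPM in control, 39.1 and 39.05 in kd1 and 65.9 and 63.1 in kd2. Its log2 difference of kd2 from kd1 was 0.72 ± 0.064, while the fall in kd1 (-0.20 ± 0.065) lost its call with the GC and length correction (-0.069).

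CDC6, the ATPase that works with the origin recognition complex to load the helicase, also fell in both knockdowns. It had 58.1 and 57.2 CPM in control, 2.88 and 2.23 in kd1 and 7.64 and 8.38 in kd2, or 22.4-fold and 7.20-fold less. CDT1, the other loader, fell less, from 73.9 and 72.6 CPM in control to 37.4 and 35.5 in kd1 and 23.8 and 22.6 in kd2. With a correction for GC and length its log2 fold change in kd1 moved from -1.01 to -1.90. It was one of 3 genes that were lower in both knockdowns and lower in kd2 than in kd1, at -0.65 ± 0.07 between them, although that correction turned this difference to 0.11.

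GMNN, which encodes geminin, the protein that holds CDT1 back outside G1, moved in opposite directions. Its level was 49.8 and 49.97 CPM in control, 82.2 and 90.05 in kd1 and 28.8 and 22.9 in kd2, so that all 3 groups were apart. The log2 fold change was 0.79 ± 0.086 in kd1 and -0.95 ± 0.092 in kd2, and the difference between the knockdowns was -1.74 ± 0.09 (adjusted p = 6.05e-10). With TMM scaling, in kd1 GMNN was at 173% and CDT1 at 49.7% of the control mean, while in kd2 they were at 51.7% and 31.7%.

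**Figure D3:**
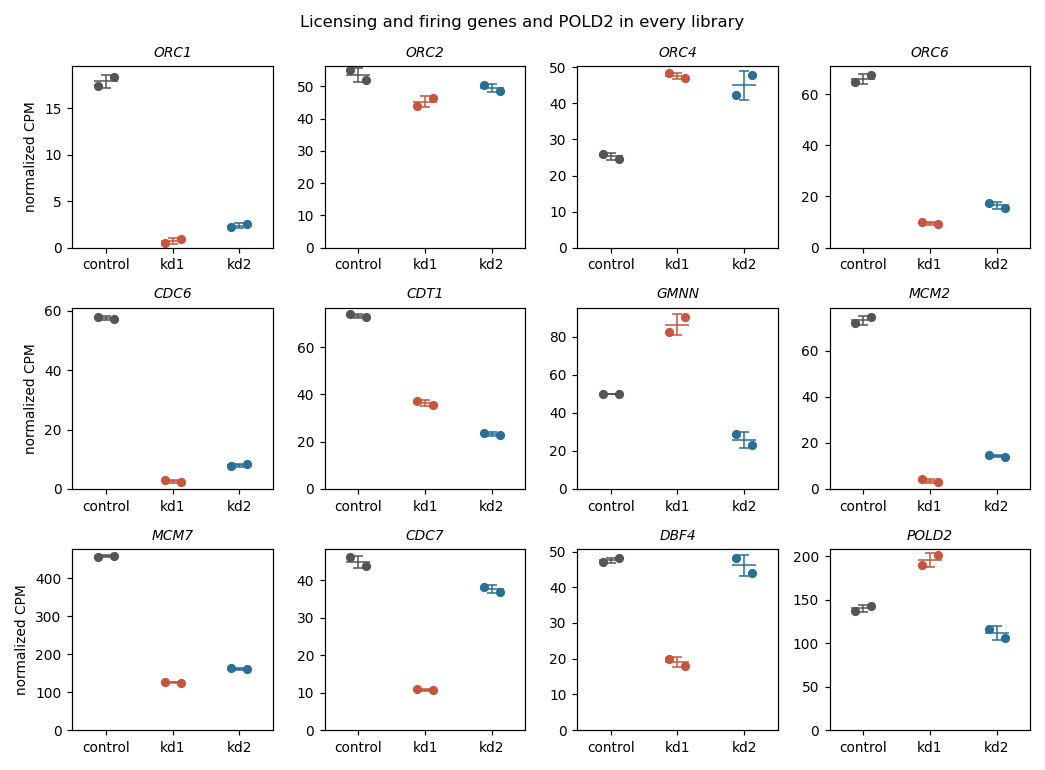
Normalized CPM of 12 genes in each library (points), with the group mean and SD of 2 libraries (bars), on linear axes from 0. CDC7 and DBF4 are far lower in kd1 than in kd2, GMNN and POLD2 are high in kd1 and low in kd2, and ORC1, CDC6 and MCM2 are low in both.

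All 6 genes of the MCM2 to MCM7 ring, the motor that unwinds DNA at the fork, were called lower in both knockdowns, and all 6 were higher in kd2 than in kd1. Their proteins form a ring with one copy of each, yet their RNA did not fall by the same amount. MCM2 had the largest fall of the ring in kd1, from 71.8 and 74.5 CPM in control to 4.12 and 2.97 in kd1 and 14.6 and 13.9 in kd2, which left 4.85% and 19.5% of the control mean. MCM4 had the smallest fall in kd1, from 169 and 172 CPM in control to 52.6 and 55.2 in kd1 and 62.1 and 60.7 in kd2. That left 31.6% and 35.98%, the latter level with MCM3 at 35.98% in kd2, and the small difference between the knockdowns turned to -0.058 on the log2 scale with the GC and length correction.

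In kd2 the lowest was MCM5, at 16.3% of control. The log2 fold changes of the rest of the ring were those of MCM5 (-3.11 ± 0.072 in kd1 and -2.62 ± 0.069 in kd2), MCM6 (-2.30 ± 0.087 and -1.65 ± 0.082), MCM3 (-2.30 ± 0.067 and -1.47 ± 0.063) and MCM7 (-1.86 ± 0.051 and -1.50 ± 0.05). Per kilobase of exon, MCM7 was the most abundant of the ring in control at 92.2 CPM, followed by MCM3 at 33.2, and the other 4 lay between 14.9 and 17.3. In kd1 the same measure ran from 0.752 for MCM2 to 25.3 for MCM7. MCM7 shares 7.90% of its exon bases with genes on the other strand, and use of strand in the counting is not given in the sources used here.

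Among the kinases and cyclins that fire licensed origins, the knockdowns differed most for CDC7 and DBF4, the catalytic and regulatory parts of the kinase that phosphorylates the MCM ring. CDC7 had 46.1 and 43.9 CPM in control, 10.98 and 10.6 in kd1 and 38.3 and 36.8 in kd2. DBF4 had 47.1 and 48.1 CPM in control, 20.1 and 17.97 in kd1 and 48.3 and 44.1 in kd2. Both fell in kd1, to 23.98% of control for CDC7 and 39.9% for DBF4. In kd2, CDC7 was at -0.26 ± 0.072 on the log2 scale, a call lost without control replicate 1 (-0.23), and DBF4 at -0.043 ± 0.075 was not called. The difference between the knockdowns was 1.80 ± 0.081 for CDC7 and 1.28 ± 0.08 for DBF4.

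CDK2 and its E cyclins fell in both. CCNE2, one of the 2 E cyclins, had the largest fall of this step, from 15.7 and 14.9 CPM in control to 1.80 and 1.22 in kd1 and 3.53 and 3.503 in kd2. On the opposite strand it shares 37.1% of its exon bases with other genes. CCNE1, the other E cyclin, was at -2.15 ± 0.21 and -1.18 ± 0.19. CDK2, their kinase, fell in both knockdowns, to 32.5% and 32.9% of control, with a difference of 0.016 ± 0.073 between them.

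The genes that turn the loaded ring into a working helicase held the deepest falls after TOP2A. GINS4, a subunit of the 4-part GINS complex, gave 541 and 543 counts in control, 8 and 6 in kd1 and 47 and 32 in kd2. CDC45, which joins GINS on the MCM ring, had 2180 and 2176 counts in control, 36 and 30 in kd1 and 152 and 137 in kd2. MCM10, which helps the assembled helicase start, had 1347 and 1326 counts in control, 32 and 21 in kd1 and 78 and 62 in kd2. In all 3 genes the knockdown libraries were far below control and kd1 was the lower of the pair. Normalized for depth, CDC45 was left at 1.46% of control in kd1 and 5.83% in kd2, MCM10 at 1.90% and 4.59%, and GINS4 at 1.24% and 6.38%. GINS4 rests on few counts in kd1.

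The other subunits of GINS fell less than GINS4. GINS3 fell least, from 23.9 and 25.9 CPM in control to 11.2 and 11.96 in kd1 and 12.4 and 9.52 in kd2. GINS1 was at -2.52 ± 0.092 and -1.65 ± 0.084, and GINS2 at -2.26 ± 0.12 and -1.92 ± 0.12, in kd1 and kd2. TOPBP1, a scaffold that brings CDC45 to origins and also serves the checkpoint, had 89.9 and 89.2 CPM in control, 17.4 and 17.3 in kd1 and 51.95 and 52.7 in kd2. Like CDC7, it fell much less in kd2, with 1.59 ± 0.067 between the knockdowns.

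**Figure D4:**
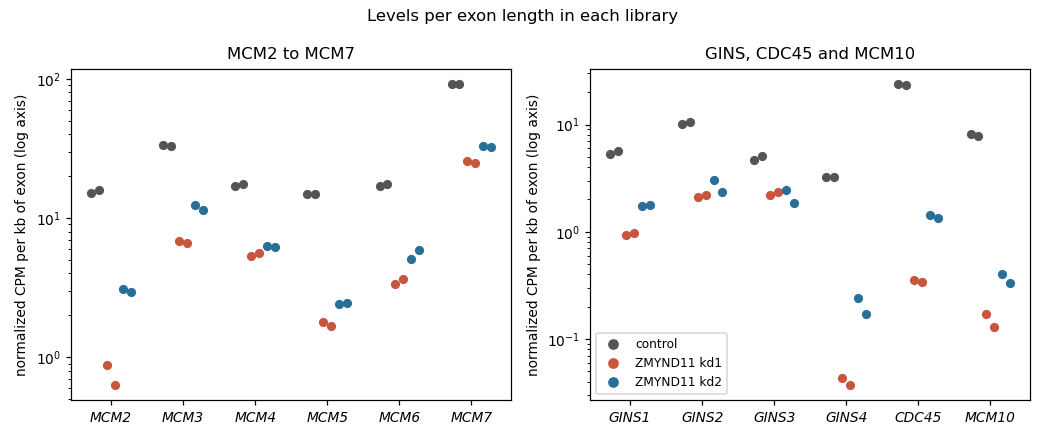
Normalized CPM per kilobase of exon, on log axes, of MCM2 to MCM7 (left) and of GINS1 to GINS4, CDC45 and MCM10 (right) in each of the 6 libraries. MCM7 stays highest of its ring in all groups, MCM2 drops farthest in kd1 and MCM5 in kd2, and CDC45, the highest of the right panel in control, falls below GINS1, GINS2 and GINS3 in both knockdowns.

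Among the polymerases and primase, 8 of 9 genes fell in kd1 and all 9 in kd2. POLE2, the second subunit of polymerase epsilon, which copies the leading strand, fell from 20.1 and 19.4 CPM in control to 1.06 and 1.22 in kd1 and 1.43 and 1.49 in kd2. Its catalytic partner POLE was at -1.88 ± 0.069 and -1.98 ± 0.069. The difference between the knockdowns was not called for either gene (0.36 ± 0.22 for POLE2, -0.10 ± 0.07 for POLE).

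Polymerase delta, which makes most of the lagging strand, was split. Its catalytic subunit POLD1 was at -1.75 ± 0.074 in kd1 and -2.17 ± 0.076 in kd2, and POLD3 at -2.45 ± 0.09 and -2.21 ± 0.087. POLD2, the subunit that links them, had 137 and 143 CPM in control, 190 and 201 in kd1 and 117 and 105 in kd2. It was higher than control in kd1 (0.48 ± 0.061) and lower in kd2 (-0.33 ± 0.061), and neither call was kept when a change of at least 1.5-fold was asked for. The difference of kd2 from kd1 for POLD1 was -0.41 ± 0.08 on the log2 scale, which turned to 0.19 with the GC and length correction, under which POLD1 in kd1 was -2.36.

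Polymerase alpha and primase lay the RNA and DNA primers. Their catalytic subunits POLA1 (-2.60 ± 0.097 in kd1, -1.65 ± 0.089 in kd2) and PRIM1 (-2.50 ± 0.14 and -2.60 ± 0.14) fell in both knockdowns, with POLA1 in kd1 at -1.84 under the GC and length correction. PRIM2, the other primase subunit, fell less in kd2 (-0.49 ± 0.094) than in kd1 (-1.54 ± 0.10), with 1.05 ± 0.10 between them. POLA2, the second subunit of polymerase alpha, was counted too rarely for a firm value, with 23 and 18 counts in control, 2 and 1 in kd1 and 8 and 11 in kd2. Its ratio to control, from the 3 and 41 summed counts, was 0.0708 in kd1 with an exact 95% interval of 0.0140 to 0.222. In kd2 it was 0.407, from 19 counts, with an interval of 0.223 to 0.718. These intervals cover counting error only. The call of POLA2 in kd2 was lost when any one library was left out (log2 fold changes from -1.554 to -1.048).

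PCNA, the ring that tethers polymerases to DNA, had the highest level per kilobase of the 55 genes in control, at 137 CPM. It fell modestly, from 189 and 195 CPM in control to 87.1 and 80.8 in kd1 and 114 and 102 in kd2. Among the subunits of RFC, which opens and loads this ring, the largest, RFC1, parted from the rest. It had 107 and 106 CPM in control, 66.02 and 71.04 in kd1 and 108 and 112 in kd2, so only kd1 was lower. RFC4 fell most, from 64.2 and 63.5 CPM in control to 8.71 and 8.04 in kd1 and 15.2 and 16.6 in kd2. RFC2 (-1.77 in kd1, -1.52 in kd2), RFC3 (-1.62, -1.30) and RFC5 (-1.82, -1.86), which like RFC4 also serve in alternative loaders, lay between. DSCC1, a subunit of an alternative loader that serves cohesion, was one of the few genes lower in kd2 (-2.40 ± 0.10) than in kd1 (-1.62 ± 0.097), with -0.78 ± 0.11 between them.

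The trimer RPA, which coats single-stranded DNA at forks and in repair, stood apart from the other fork genes. RPA1, its large subunit, had 105 and 106 CPM in control, 83.9 and 83.2 in kd1 and 115 and 119 in kd2, and was called lower in the first and higher in the second. RPA2 had 63.8 and 64.3 CPM in control, 61.2 and 57.7 in kd1 and 71.1 and 73.98 in kd2. RPA3, the smallest, had 57.7 and 62.9 CPM in control, 85.2 and 87.8 in kd1 and 75.5 and 61.9 in kd2. With TMM scaling, no value of the 3 subunits reached a 1.5-fold change. The calls of RPA1 (0.14 ± 0.053) and RPA2 (0.18 ± 0.06) in kd2 were lost when either control library was left out (0.131 and 0.155 for RPA1, 0.172 and 0.188 for RPA2), and with library totals alone RPA1 turned to -0.027 there. RPA2 in kd1 was at -0.11 ± 0.061, and at -0.59 and called with the GC and length correction.

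TOP2A (chr17:40388525-40417896 on hg38), the topoisomerase that untangles sister DNA and is most abundant late in the cell cycle, had the largest fall of the 55 genes in both knockdowns. It gave 8720 and 8833 counts in control, 62 and 59 in kd1 and 189 and 165 in kd2. Its level fell 150-fold (-7.22 ± 0.087 on the log2 scale, adjusted p = 7.91e-16) and 56.4-fold (-5.82 ± 0.075, adjusted p = 1.33e-15). Okazaki fragments are trimmed by FEN1 and sealed by LIG1. LIG1 was at -3.37 ± 0.093 in kd1 and -2.77 ± 0.087 in kd2. FEN1 fell less, from 83.3 and 85.04 CPM in control to 22.4 and 24.4 in kd1 and 29.6 and 26.4 in kd2.

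The fork protection genes keep the helicase and polymerases coupled and signal to the checkpoint. TIMELESS fell from 174 and 164 CPM in control to 11.4 and 13.1 in kd1 and 15.4 and 14.7 in kd2. Its binding partner TIPIN fell less, from 20.3 and 19.96 CPM in control to 6.98 and 6.65 in kd1 and 7.28 and 6.42 in kd2. TIMELESS was thus left at 7.25% and 8.90% of control and TIPIN at 33.9% and 34.02%, though TIPIN shares 21.1% of its exon bases with other genes on the same strand and its counts are uncertain. CLSPN, the checkpoint mediator claspin, was at -3.62 ± 0.17 and -2.96 ± 0.15. WDHD1, which ties polymerase alpha to the helicase, was at -2.39 ± 0.088 and -1.34 ± 0.08.

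CHAF1A and CHAF1B, subunits of the CAF-1 complex that places histones on new DNA, fell in both knockdowns. CHAF1B had 25.1 and 27.9 CPM in control, 2.21 and 2.09 in kd1 and 2.49 and 2.83 in kd2. CHAF1A had 71.6 and 69.7 CPM in control, 9.80 and 11.3 in kd1 and 14.9 and 15.4 in kd2. In each gene all 4 knockdown libraries lay below both controls, and the difference between the knockdowns was called for CHAF1A (0.52 ± 0.093) but not for CHAF1B (0.30 ± 0.17).

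The knockdowns differed from each other in 44 of the 55 genes, with 38 higher and 6 lower in kd2, where 34.9% of all genes were higher and 33.8% lower. Of the 44 genes lower than control in both, 33 were higher in kd2, 3 (CDT1, POLD1 and DSCC1) were lower and 8 (CDK2, GINS3, POLE2, PRIM1, POLE, RFC5, TIPIN and CHAF1B) were not called different. Leaving out kd1 replicate 1 left 30 genes higher in kd2. The median log2 difference of the 55 genes was 0.48, beside 0.022 over all genes. Apart from POLA2 with its few counts, the largest differences were those of GINS4 (2.34 ± 0.36), MCM2 (1.995 ± 0.12), CDC45 (1.99 ± 0.16), CDC7 (1.80 ± 0.081) and, in the other direction, GMNN (-1.74 ± 0.09). ZMYND11 RNA itself was lower in kd2 than in kd1, at -0.28 ± 0.071.

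**Figure D5:**
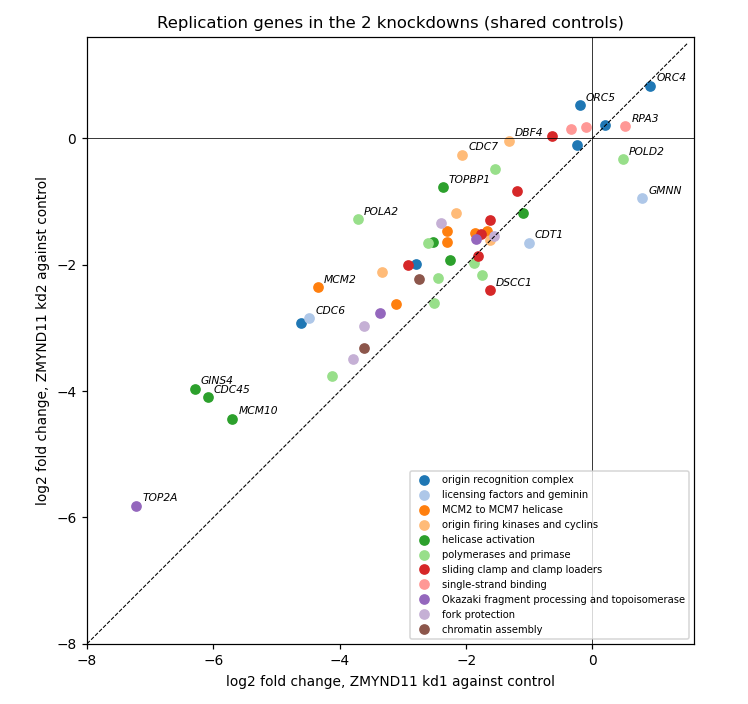
Log2 fold change against control of each of the 55 genes in kd1 (horizontal) and kd2 (vertical), coloured by step, with a dashed line where both are equal; the controls are shared. Most points lie above the line, so the fall was larger in kd1, while GMNN, CDT1, DSCC1 and POLD2 lie below it.

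A second list of 30 replication genes held further regulators, accessory subunits and histone chaperones. In kd1, 21 of the 30 were called lower and 7 higher, where 39.8% of all genes were lower and 38.2% higher. In kd2, 21 were lower and 3 higher, against 36.9% and 36.5%, and the median log2 fold change of the list was -0.83 in kd1 and -1.09 in kd2. Lowest by the mean of the knockdowns were TICRR, which works with TOPBP1 to bring CDC45 to origins (-5.75 in kd1, -5.03 in kd2), DTL, which directs CDT1 to destruction in S phase (-4.47, -3.43), and ATAD5, which unloads PCNA (-4.40, -3.27). Highest were the histone chaperone ASF1A (1.44, 1.12), the ribonuclease H2 subunit RNASEH2C (1.23, 0.48) and POLD4, the smallest subunit of polymerase delta (1.15, and 0.38, not called, in kd2).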

How the data were processed

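RNA of 6 libraries of 22Rv1 cells, 2 in each of 3 groups, was analysed, with groups taken from the titles in the labels. The deposited values are raw counts per gene symbol, with no normalization by the authors. Reads had been checked with FastQC 0.11.9, trimmed with AdapterRemoval and aligned to hg38 with STAR 2.7.9a, and the submitters' processing notes also name HTSeq 0.13.5. The counting annotation, whether strand was used and how reads matching several places were treated are not given in the sources used here.

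Counts were fitted with edgeR 4.0.16 in R 4.3.3, with filterByExpr, TMM scaling and non-robust quasi-likelihood tests, in one model of the 3 groups with 3 residual degrees of freedom. Adjusted p-values are Benjamini-Hochberg values over all 16510 genes tested. A standard error is the size of the log2 fold change over the square root of F. Normalized CPM divide counts by the TMM-scaled library total, and CPM per kilobase use exon lengths of GENCODE 44, to which 32852 symbols matched by name and 2470 did not. The fit was tested on simulated counts with a small set of changed genes, balanced up and down, in kd1 alone. In the real data most tested genes were called, a setting that the simulation did not cover.

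All 55 genes are named. Library values are given for the lowest and highest gene of each step by the mean of both log2 fold changes, for genes called higher or in opposite directions, and for some others chosen after their values were seen. For promoters the same mean was used among genes with a RefSeq entry. The 55 genes, the steps, the lists and the alternatives were chosen with earlier results of these data known. Alternatives were DESeq2 size factors, library totals alone, offsets for GC content and gene length, a replicate block, the Wald test of DESeq2 1.42.0, a tested fold change of 1.5, a fit of only the compared groups, each library left out, and a filter of 10 counts in every library or none. Libraries of one group differed by more than sampling noise (chi-square per gene from 2.33 to 10.1) and were not duplicates. Of the prostate markers looked for, 1 is not reported here. Splicing was not analysed here.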

Additional observations from a re-analysis of the deposited data

Results flagged for a closer look

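In 4 of the 55 genes the knockdowns were called on opposite sides of control, and the test between them was also called. The log2 difference of kd2 against kd1 was -1.74 for GMNN, -0.81 for POLD2, 0.72 for ORC5 and 0.48 for RPA1. Only GMNN passed in both knockdowns when a change of at least 1.5-fold was asked for. The call against control of RPA1 in kd2 was lost without control replicate 1 (0.131) or control replicate 2 (0.155), and that of ORC5 in kd1 without control replicate 2 (-0.177) or either kd1 library (-0.200 and -0.201).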

How the results depend on the processing

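The number of genes called lower stayed within 1.5 times under every alternative run, at 45 to 50 in kd1 and 42 to 48 in kd2. The number called higher in kd1 was 5, and 3 with library totals alone and 2 with a tested fold change of 1.5. In kd2 it was 5, and 2 with library totals alone, 3 with the GC and length correction, 3 with the DESeq2 Wald test, 1 with a fold change of 1.5, and 2 to 6 with single libraries left out (2 without either control). Between the knockdowns, 3 genes were lower and 20 higher with a fold change of 1.5. With library totals alone, the median of all genes shifted to -0.38, -0.20 and 0.21 in kd1, kd2 and between them, and that of the 55 genes to -2.51, -1.82 and 0.67. Relative to all genes the latter medians were -2.12, -1.62 and 0.46, where TMM gave -2.13, -1.62 and 0.46, and 38.9% of calls between the knockdowns were toward lower, where TMM gave 49.2%. The median in kd2 was -1.70 with the GC and length correction, -1.69 with at least 10 counts in every library, and -1.68 to -1.60 with single libraries left out. Between the knockdowns it was 0.37 with at least 10 counts in every library, 0.43 with only the groups compared, and 0.42 to 0.49 with single libraries left out. GINS4 and POLA2 were not tested with at least 10 counts in every library, which leaves 53 genes, and 54 were tested between the knockdowns with only those groups.

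Over the single genes and alternatives, 797 values in kd1, 782 in kd2 and 740 between the knockdowns kept their direction and call, 21, 33 and 52 lost the call, and 3, 4 and 10 gained one. Single genes turned direction in 2, 4 and 20 values, and the cause was not tested. With library totals alone these were ORC3 in kd1 (-0.16), RFC1 (-0.13) and RPA1 (-0.027) in kd2, and, between the knockdowns, ORC4 (0.10), GINS3 (0.11), PRIM1 (0.082), POLE (0.087) and RFC5 (0.15). With the GC and length correction they were ORC2 in kd1 (0.087), RPA2 in kd2 (-0.028), and, between the knockdowns, ORC2 (-0.19), ORC3 (-0.24), CDT1 (0.11), MCM4 (-0.058), POLD1 (0.19) and TIPIN (-0.012). With single libraries left out, DBF4 in kd2 ranged from -0.11 to 0.026, the latter without kd2 replicate 2. Between the knockdowns ORC3 (-0.0089, highest 0.048), RFC5 (0.066, lowest -0.15) and TIPIN (-0.023) turned without kd1 replicate 2, CDK2 (-0.074) and TIPIN (-0.096) without kd2 replicate 1, and ORC3 (-0.00029), GINS3 (0.10, lowest -0.29), PRIM1 (0.052, lowest -0.28) and RFC5 (0.061) without kd2 replicate 2. Libraries of the same number did not deviate together (correlations of 0.006, -0.026 and -0.044). With 2 libraries a group, these correlations cannot settle whether libraries of the same number shared a culture or batch. With the replicate block, 49 genes were lower and 5 higher in kd1, 45 and 4 in kd2, and 6 and 36 between the knockdowns, and the calls lost were POLA2 and RPA1 in kd2 and GINS2 and POLD3 between them. POLA2 in kd2 also lost its call when any single library was left out, with values from -1.55 to -1.05. Depth limits POLA2 and, in kd1, GINS4.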
